A study of Mus musculus with 11 samples.

Results

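The genes described here encode signals of the transforming growth factor beta (TGF beta), platelet-derived growth factor (PDGF) and colony-stimulating factor 1 (CSF1) pathways. They are the ligand genes Tgfb1, Tgfb2 and Tgfb3, the receptor genes Tgfbr1 and Tgfbr2, the PDGF ligand genes Pdgfa, Pdgfb and Pdgfc, and Csf1. They were chosen by name, 9 of the 43346 genes in the table, and all 9 were expressed well above the filter on low values. RNA was sequenced from mouse liver cells selected by magnetic beads that bind EpCAM, a surface protein of epithelia, with a repeat column for purity. The labels call them cholangiocytes, the epithelium of the bile ducts. All mice were wildtype C57BL/6 males aged 14 to 16 weeks, with no transgene, and each library was taken as 1 mouse. The 4 DDC mice ate the DDC diet, which causes cholestatic liver injury in mice, for 10 days. The 3 R15 mice ate it for 10 days and then chow for 15 days, and the 4 Control mice ate chow.

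TGF beta ligands are secreted in a latent form, held by binding proteins and released by integrins or proteases, and they signal through the type 1 and type 2 receptors Tgfbr1 and Tgfbr2 to SMAD transcription factors. PDGF ligands act on the receptors Pdgfra and Pdgfrb, which in liver are known from hepatic stellate cells and portal fibroblasts, the cells that lay down scar matrix. CSF1 acts on Csf1r and is needed for the survival of most macrophages. In injured bile ducts, reactive cholangiocytes are known as a source of such signals to the cells around them.

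Values are FPKM, reads scaled to gene length and library size, so levels of different genes can be compared. The libraries held 49339240 to 72929107 reads, and each value of the 9 genes rested on 1152 to 22324 reads, so counting error was small beside the spread between mice. The cholangiocyte label fitted its markers: the 10 marker genes summed to 9953.7 to 11110.8 FPKM in DDC, 8774.9 to 9820.5 in R15 and 8082.4 to 11061.4 in Control libraries. Macrophage and Kupffer cell markers, 14 genes, summed to 1420.4 to 2561.6 FPKM in DDC, against 155 to 185 FPKM in Control libraries. In R15 they summed to 154 and 191 FPKM in R15 1 and R15 3, and to 819 FPKM in R15 2, which stood apart and also had the highest sum of 7 B and plasma cell markers, at 3176.8 FPKM. The 10 pancreatic acinar markers summed to 873 FPKM in DDC 1, 1106.3 in R15 3, and 6770.4, 1803.5 and 803 in Control 1, Control 2 and Control 3, and to at most 11.4 FPKM in every other library. Endothelial markers summed to 32.9 to 72.7 FPKM in DDC, 74.4 to 262 in R15 and 113 to 490 in Control libraries. Hepatocyte markers summed to 1155.4 to 1684.2 FPKM in DDC, 1881.8 to 2570.7 in R15 and 2970.4 to 3677.4 in Control libraries. Gene by gene they were mixed: of 10 tested for DDC against Control (test below), 4 were lower, 3 were higher and 3 did not pass. Neutrophil markers summed to 41.7 to 70.2 FPKM in DDC, 2.66 to 9.98 in R15 and 1.36 to 3.95 in Control, dendritic cell markers to 70.5 to 90.1 in DDC, 24.9 to 66.8 in R15 and 16.3 to 27.7 in Control, and platelet markers to 34.1 to 51.0 in DDC, 20.3 to 47.5 in R15 and 11.8 to 19.3 in Control. Of 5 platelet markers tested for DDC against Control, only Pf4 was higher, Ppbp was lower and 3 did not pass. T and NK cell markers were at 2.19 to 18.2 FPKM and mesothelial markers at 34.9 to 86.3 FPKM over all libraries. B and plasma cell markers summed to 250 to 481 FPKM in DDC and 651 to 1389.9 FPKM in Control. The 14 markers of stellate cells and fibroblasts summed to 421 to 508 FPKM in DDC, 166 to 226 in R15 and 33.2 to 62.1 in Control libraries, most of it from 1 gene, Rgs5, and 10 of the 14 were under the filter. No listed marker of any of these types was at 0 in every library. In bulk RNA, more cells of a type and more RNA per cell cannot be told apart.

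At the end of the diet 5 of the 9 genes rose (Tgfb1, Tgfbr1, Tgfbr2, Pdgfb, Csf1), 3 fell (Tgfb3, Pdgfa, Pdgfc) and Tgfb2 did not pass the test. Of all 15264 genes tested, 65.4% passed in DDC against Control, 33.5% higher and 31.9% lower, so the number of changed genes among the 9 was not far above that background. In 8 of the 9 the DDC and Control libraries did not overlap, beside 61.3% of all genes. The test was limma on log2(FPKM + 1) over all 11 libraries, with Benjamini-Hochberg adjustment over all genes tested and a threshold of 0.05. The comparisons share libraries: DDC against Control and R15 against DDC both use the DDC mice, and both comparisons with Control use the Control mice.

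**Figure D1:**
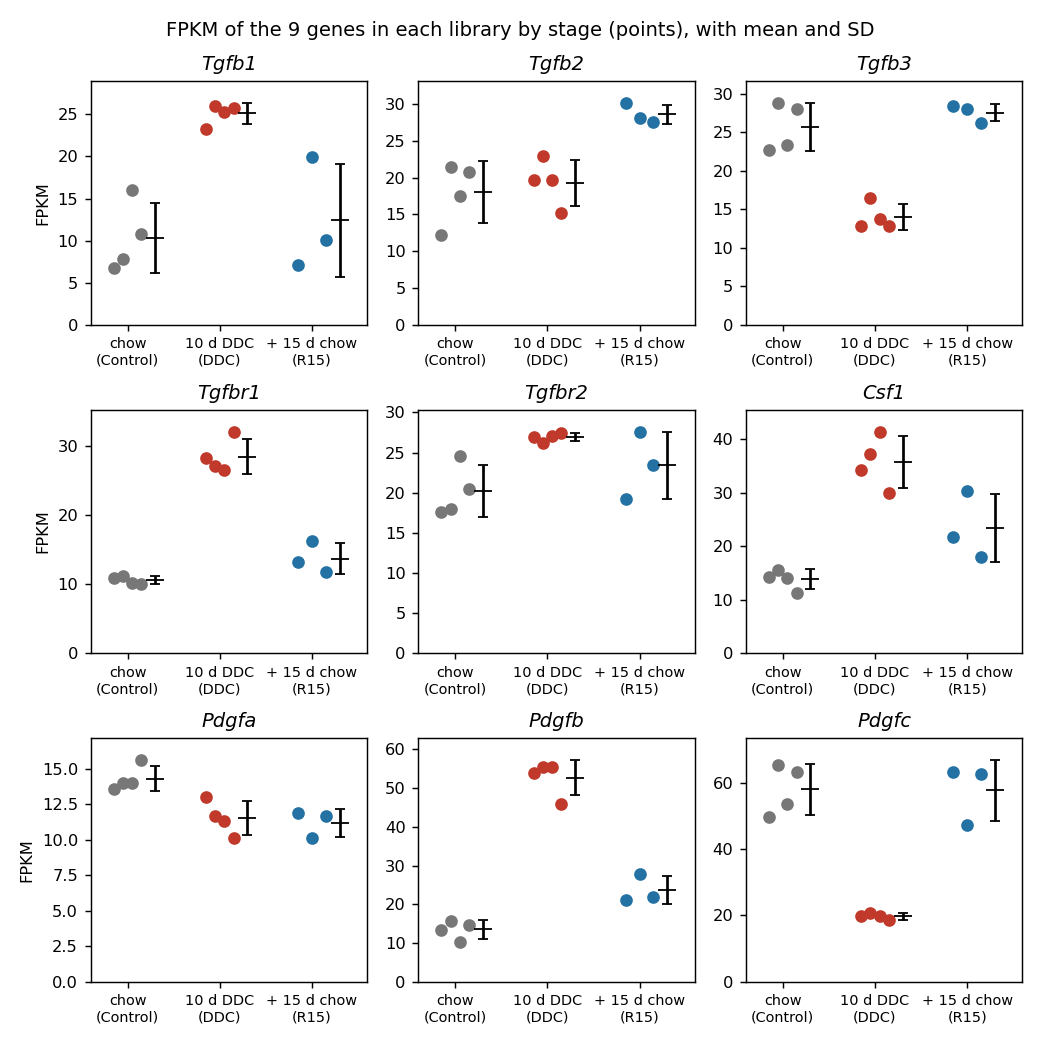
Points are FPKM in single libraries for the 9 genes, by stage along the x axis: chow (Control, n = 4), 10 days of DDC (DDC, n = 4) and 15 days back on chow (R15, n = 3); bars are the mean and SD. Pdgfb and Pdgfc moved in opposite directions between DDC and Control, and in Tgfb1 and Csf1 the library R15 2 lay highest of the 3 recovered ones.

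The TGF beta ligand genes each took a different course. Tgfb1 (ENSMUSG00000002603; mm10 chromosome 7, 25687002 to 25705077, plus strand) encodes the ligand best known for driving liver fibrosis. It was at 23.3, 26.0, 25.3 and 25.7 FPKM in DDC 1 to 4, against 6.71, 7.80, 16.0 and 10.8 FPKM in Control 1 to 4. Every DDC library lay above every Control library, and the Control libraries were spread more widely than the DDC ones. The mean was 25.1 ± 1.22 in DDC and 10.3 ± 4.17 FPKM in Control (SD, n = 4 each), a ratio of 2.43, and Tgfb1 rose by 1.27 ± 0.30 on the log2(FPKM + 1) scale (SE, adjusted p = 0.0035). The macrophage marker sum was higher in the same DDC libraries, and its part in this rise was not tested. After recovery Tgfb1 was at 7.13, 19.9 and 10.1 FPKM in R15 1 to 3, lower than in DDC by a log2 difference of -1.08 ± 0.32 (adjusted p = 0.014). The high value was that of R15 2. There the macrophage sum (819 FPKM) and the endothelial sum (262 FPKM) both exceeded those of R15 1 and R15 3. Endothelial marker sums ran in the same order as Tgfb1 within R15 and within Control (113, 153, 490 and 349 FPKM in Control 1 to 4). They did not within DDC, where they were lower (32.9 to 72.7 FPKM) and Tgfb1 was higher. Macrophage sums in Control spanned only 155 to 185 FPKM. The part of either cell type in the Tgfb1 spread was not tested. Against DDC the R15 call was lost only without R15 1 among the libraries left out singly (log2 difference -0.78). Against Control the R15 difference was 0.19 ± 0.32 with a 95% interval of -0.52 to 0.90, and -0.19 without R15 2.

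The RefSeq promoter table (build GRCm38.p6) held 9 promoters for 7 of the 9 genes; each was searched over the 250 bases before the start, on both strands, for 4 short motifs. CCAAT, the box bound by NF-Y, the factor named in the study's title, was in 3 of the 9 promoters and in 33.8% of all 32851 promoters of that length. GGGA followed by any 4 bases and CC, a form of the NF-kB site, was in 3 of 9, those of Tgfb1, Pdgfa and Csf1, and in 17.6% of all. CAGAC, a SMAD-binding motif, was in 4 of 9 and in 42.2% of all. TGANTCA, an AP-1 form, was in 0 of 9 and in 6.75% of all; none of these motifs overlapped another, except for a pair of NF-kB form matches on opposite strands in Csf1. The NF-kB form did not go with 1 direction, since Tgfb1 and Csf1 rose in DDC and Pdgfa fell. The Tgfb1 promoter is shown as an example of it. It lies at chr7:25686752-25687001 on the plus strand, and the capitals mark the match, which begins 140 bases before the start.
Tgfb1: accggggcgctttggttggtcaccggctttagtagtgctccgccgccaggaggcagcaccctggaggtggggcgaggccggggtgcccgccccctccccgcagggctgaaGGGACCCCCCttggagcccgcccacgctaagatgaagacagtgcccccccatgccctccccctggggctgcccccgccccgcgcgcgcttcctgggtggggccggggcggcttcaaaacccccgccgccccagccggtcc
A match in letters is a description of the sequence and shows no binding.

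Tgfb2 (ENSMUSG00000039239, chromosome 1, 186622792 to 186705989, minus strand) did not pass in DDC against Control and was highest in R15. Its R15 call against Control depended on the processing. It was at 19.6, 22.9, 19.6 and 15.2 FPKM in DDC 1 to 4 and at 12.2, 21.4, 17.5 and 20.8 FPKM in Control 1 to 4, groups that overlapped. The log2 difference of DDC from Control was 0.11 ± 0.17 (95% interval -0.25 to 0.48, adjusted p = 0.56), and it was -0.05 without Control 1. In R15 1 to 3 it was at 30.1, 28.1 and 27.6 FPKM, above every DDC and every Control library. The mean of 28.6 ± 1.32 FPKM in R15 (SD, n = 3) stood against 19.3 ± 3.14 in DDC and 18.0 ± 4.22 in Control (SD, n = 4 each). Tgfb2 rose in R15 by 0.56 ± 0.18 over DDC (adjusted p = 0.02) and by 0.67 ± 0.18 over Control (adjusted p = 0.044). Against DDC the call was lost without DDC 4 (0.45) or R15 1 (0.52). Against Control it was lost without any 1 of Control 1, Control 3, DDC 1, DDC 2, DDC 3, R15 1, R15 2 or R15 3, with log2 differences between 0.51 and 0.69. The call against Control was also lost with median-of-ratios scaling (adjusted p = 0.0527) and with rescaling to one total (adjusted p = 0.056). It was lost too with no filter (adjusted p = 0.077) and with the replicate block (adjusted p = 0.098). Gm26169 and the antisense Gm29491 overlap Tgfb2, and no source used here gives the strand setting of the authors' counting, so their reads may be mixed.

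Tgfb3 (ENSMUSG00000021253; chromosome 12, 86056744 to 86079041, minus strand) encodes the third ligand. In DDC 1 to 4 it was at 12.9, 16.5, 13.8 and 12.9 FPKM, against 22.7, 28.8, 23.4 and 28.0 FPKM in Control 1 to 4. The groups did not overlap, and Tgfb3 fell to 14.0 ± 1.73 FPKM in DDC, against 25.7 ± 3.11 FPKM in Control (SD, n = 4 each; log2 difference -0.83 ± 0.09, adjusted p = 3.3e-05). R15 libraries were at 28.4, 28.1 and 26.3 FPKM, all above DDC (log2 difference 0.93 ± 0.10, adjusted p = 4.1e-05) and within the Control range. The R15 difference from Control was 0.11 ± 0.10 (95% interval -0.12 to 0.33). Ttll5, Gm37804 and Gm48008 overlap Tgfb3 on the opposite strand, with the same caution on counting.

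The summed level of the 3 ligand genes overlapped between DDC and Control, while the shares of Tgfb1 and Tgfb3 in it did not. The sum was 53.9 to 65.4 FPKM in DDC and 41.6 to 59.6 FPKM in Control libraries. Tgfb1 made up 43.1 ± 3.39% of it in DDC and 19.0 ± 6.42% in Control, and Tgfb3 24.0 ± 0.96% in DDC and 48.1 ± 5.62% in Control (SD, n = 4 each). Tgfb2 made up 32.9 ± 3.22% in DDC and 32.9 ± 3.55% in Control. In R15 the sum was 64.0 to 76.0 FPKM, above every Control library, with Tgfb2 at 42.0 ± 4.58% of it, Tgfb3 at 40.5 ± 3.24% and Tgfb1 at 17.6 ± 7.81% (SD, n = 3). These shares are descriptions, with no test.

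**Figure D2:**
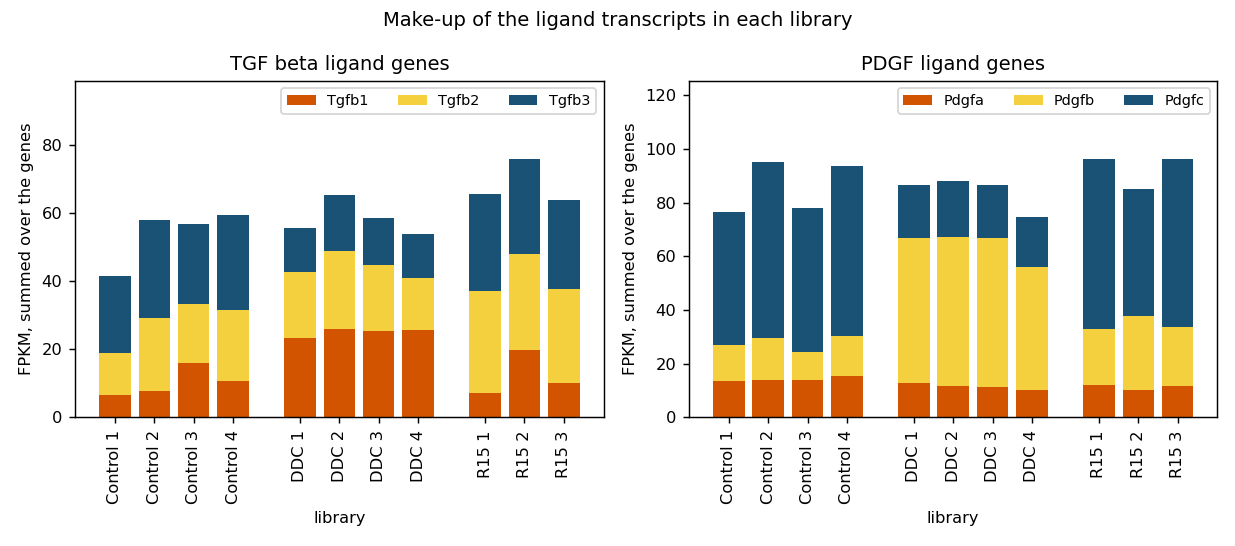
Stacked bars give FPKM in each library, summed over the 3 TGF beta ligand genes (left) and over Pdgfa, Pdgfb and Pdgfc (right); colours are the genes and libraries run by stage. The heights of the PDGF bars overlap between stages, at 74.6 to 87.9 FPKM in DDC, 85.1 to 96.4 in R15 and 76.6 to 95.2 in Control, while Pdgfb makes up most of each DDC bar and Pdgfc most of the others. Pdgfd, another PDGF ligand gene, is not in the bars. With it the sums were lower in DDC, at 114 to 136 FPKM, against 163 to 188 in R15 and 158 to 197 in Control.

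The receptor genes rose together in DDC, Tgfbr1 by the larger factor. Tgfbr1 (ENSMUSG00000007613; chromosome 4, 47353222 to 47414931, plus strand) encodes the type 1 receptor, the kinase that phosphorylates SMAD2 and SMAD3. It was at 28.3, 27.1, 26.6 and 32.1 FPKM in DDC 1 to 4, against 10.9, 11.2, 10.2 and 10.0 FPKM in Control 1 to 4. No DDC library came near the Control range, and the mean was 28.5 ± 2.47 in DDC and 10.6 ± 0.565 FPKM in Control (SD, n = 4 each), a ratio of 2.70 (log2 difference 1.35 ± 0.09, adjusted p = 1.1e-06). In R15 1 to 3 it was at 13.2, 16.2 and 11.8 FPKM, below every DDC library (log2 difference -1.01 ± 0.10, adjusted p = 1.8e-05) and above every Control library. The difference of R15 from Control, 0.34 ± 0.10, did not pass (adjusted p = 0.0543), and passed without Control 2 (0.37) or R15 3 (0.43).

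Tgfbr2 (ENSMUSG00000032440; chromosome 9, 116087698 to 116175363, minus strand) encodes the type 2 receptor, which binds the ligand and activates the type 1 receptor. It was at 27.0, 26.2, 27.1 and 27.5 FPKM in DDC 1 to 4, against 17.6, 18.0, 24.6 and 20.5 FPKM in Control 1 to 4. The DDC libraries lay just above the highest Control library, and the rise was small, at 26.9 ± 0.515 in DDC and 20.2 ± 3.20 FPKM in Control (SD, n = 4 each; log2 difference 0.41 ± 0.12, adjusted p = 0.01). R15 libraries were at 19.2, 27.6 and 23.5 FPKM and overlapped both other groups, with R15 2 the highest. R15 2 also had the highest macrophage (819 FPKM) and endothelial (262 FPKM) marker sums of the R15 libraries. Endothelial sums ran in the same order as Tgfbr2 within Control and within R15, and were lower in DDC. The part of either cell type in the Tgfbr2 values was not tested. The R15 difference was -0.21 ± 0.13 from DDC (95% interval -0.49 to 0.07), which passed without R15 2 (-0.33), and 0.20 ± 0.13 from Control (-0.08 to 0.48). A promoter of each receptor gene is shown because it holds CCAAT on both strands, as capitals mark, in a study of NF-Y. The Tgfbr1 promoter shown lies at chr4:47352972-47353221 on the plus strand, with matches beginning 154 and 57 bases before the start. The other Tgfbr1 promoter, at chr4:47385966-47386215, held no CCAAT and is not shown. The Tgfbr2 promoter lies at chr9:116175364-116175613 on the minus strand, with matches beginning 85 and 68 bases before the start.
Tgfbr1: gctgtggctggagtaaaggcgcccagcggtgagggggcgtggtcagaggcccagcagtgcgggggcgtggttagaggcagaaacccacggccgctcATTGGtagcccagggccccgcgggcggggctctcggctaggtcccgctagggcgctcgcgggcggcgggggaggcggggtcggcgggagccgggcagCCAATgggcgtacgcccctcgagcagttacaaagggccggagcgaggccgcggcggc
Tgfbr2: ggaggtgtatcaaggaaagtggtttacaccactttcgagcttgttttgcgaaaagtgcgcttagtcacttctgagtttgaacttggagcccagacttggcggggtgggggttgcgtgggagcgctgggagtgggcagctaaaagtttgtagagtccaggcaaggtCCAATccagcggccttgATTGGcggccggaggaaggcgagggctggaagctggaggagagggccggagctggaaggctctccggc
Tgfb2 was the other gene of the 9 with CCAAT in a promoter, and it did not pass in DDC.

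The PDGF ligand genes traded places. Pdgfb rose and Pdgfc fell in DDC, and both moved back towards Control in R15, Pdgfc the whole way within the error and Pdgfb in part. Pdgfb (ENSMUSG00000000489; chromosome 15, 79995900 to 80014808, minus strand) encodes the B chain, whose dimer is a strong mitogen for stellate cells. It was at 53.9, 55.4, 55.5 and 46.0 FPKM in DDC 1 to 4, against 13.3, 15.7, 10.3 and 14.7 FPKM in Control 1 to 4. The groups lay far apart, with means of 52.7 ± 4.52 in DDC and 13.5 ± 2.35 FPKM in Control (SD, n = 4 each), the largest ratio of the 9 genes at 3.91 (log2 difference 1.90 ± 0.13, adjusted p = 1.2e-06). R15 libraries were at 21.2, 27.8 and 21.9 FPKM, between the other groups and overlapping neither. Pdgfb was lower in R15 than in DDC by a log2 difference of -1.13 ± 0.14 (adjusted p = 7.8e-05) and still higher than in Control by 0.77 ± 0.14 (adjusted p = 0.01), a call that held whichever 1 library was left out but not with R15 and Control fitted alone (adjusted p = 0.061). Mir7213 and the antisense Gm41361 overlap Pdgfb.

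Pdgfc (ENSMUSG00000028019; chromosome 3, 81036416 to 81214040, plus strand) encodes a ligand that is secreted with a CUB domain and becomes active once a protease removes it. It was at 19.8, 20.8, 19.8 and 18.5 FPKM in DDC 1 to 4, against 49.6, 65.5, 53.7 and 63.3 FPKM in Control 1 to 4. All DDC libraries were far below all Control libraries: Pdgfc fell to 19.7 ± 0.941 FPKM in DDC, against 58.0 ± 7.59 FPKM in Control (SD, n = 4 each), a ratio of 0.340 (log2 difference -1.50 ± 0.11, adjusted p = 1.9e-06). The hepatocyte marker sum was also lower in the DDC libraries, though of its 10 genes 4 fell, 3 rose and 3 did not pass. The part of hepatocytes in the Pdgfc fall was not tested. R15 libraries were at 63.3, 47.2 and 62.8 FPKM, above every DDC library by a log2 difference of 1.49 ± 0.12 (adjusted p = 6.7e-06). From Control they differed by -0.01 ± 0.12 (95% interval -0.27 to 0.25), a value whose sign changed under 5 of the alternative settings. Gm16000 overlaps Pdgfc on the opposite strand.

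Pdgfa (ENSMUSG00000025856; chromosome 5, 138976014 to 138997370, minus strand) encodes the A chain and changed least among those that passed. It was at 13.0, 11.7, 11.3 and 10.1 FPKM in DDC 1 to 4, against 13.6, 14.0, 14.0 and 15.6 FPKM in Control 1 to 4. The groups did not overlap, by a narrow margin, and the mean fell to 11.5 ± 1.19 FPKM in DDC, against 14.3 ± 0.885 FPKM in Control (SD, n = 4 each; log2 difference -0.29 ± 0.08, adjusted p = 0.007). R15 libraries, at 11.9, 10.1 and 11.7 FPKM, lay within the DDC range (log2 difference -0.03 ± 0.08, adjusted p = 0.74) and below every Control library (-0.32 ± 0.08, adjusted p = 0.038). That last call was lost without any 1 of Control 1, Control 3, Control 4, DDC 2, DDC 3, R15 1, R15 2 or R15 3, with log2 differences of -0.37 to -0.26. The antisense 6330403L08Rik overlaps Pdgfa.

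Of the summed FPKM of Pdgfa, Pdgfb and Pdgfc, Pdgfb made up 61.7 to 64.1% in DDC libraries, against 13.2 to 17.4% in Control libraries. Pdgfc made up 22.8 to 24.8% in DDC, against 64.8 to 68.9% in Control. In R15 libraries Pdgfb made up 22.0 to 32.6% and Pdgfc 55.5 to 65.6%. Pdgfd, a second ligand with a CUB domain and no member of the 9, was the most abundant PDGF ligand gene in R15 and Control, and with it included Pdgfb made up 41.1% of the sum in DDC, 13.4% in R15 and 7.61% in Control on average. That sum was 114 to 136 FPKM in DDC, below every R15 library (163 to 188 FPKM) and every Control library (158 to 197 FPKM).

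Csf1 (ENSMUSG00000014599; chromosome 3, 107741048 to 107760469, minus strand) encodes the growth factor that macrophages need. It was at 34.2, 37.2, 41.4 and 30.0 FPKM in DDC 1 to 4, against 14.3, 15.6, 14.0 and 11.2 FPKM in Control 1 to 4. The groups did not overlap, and the mean was 35.7 ± 4.84 in DDC and 13.8 ± 1.85 FPKM in Control (SD, n = 4 each), a ratio of 2.59 (log2 difference 1.31 ± 0.16, adjusted p = 5e-05). The macrophage marker sum was higher in every DDC library than in every Control library. Within DDC the library with the highest sum, DDC 4 at 2561.6 FPKM, had the lowest Csf1. R15 libraries were at 21.8, 30.4 and 17.9 FPKM; R15 2, with the highest macrophage sum of the R15 libraries (819 FPKM), had the highest Csf1 and overlapped the lowest DDC library, and all lay above Control. The part of macrophages in the Csf1 values was not tested. The R15 difference was -0.61 ± 0.17 from DDC (adjusted p = 0.01) and 0.70 ± 0.17 from Control (adjusted p = 0.034). The second call was lost without any 1 of Control 1, Control 3, Control 4, DDC 1, DDC 2, R15 1 or R15 2, and was 0.50 without R15 2. The Csf1 promoter, at chr3:107760470-107760719 on the minus strand, is shown for its NF-kB form matches in capitals, 1 beginning 231 bases before the start and an overlapping pair, on opposite strands, at 155 and 154 bases.
Csf1: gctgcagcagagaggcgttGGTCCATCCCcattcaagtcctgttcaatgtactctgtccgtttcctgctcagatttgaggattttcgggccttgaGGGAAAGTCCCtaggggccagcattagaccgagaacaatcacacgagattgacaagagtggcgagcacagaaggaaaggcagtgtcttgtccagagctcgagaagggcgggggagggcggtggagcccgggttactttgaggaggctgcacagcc

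**Figure D3:**
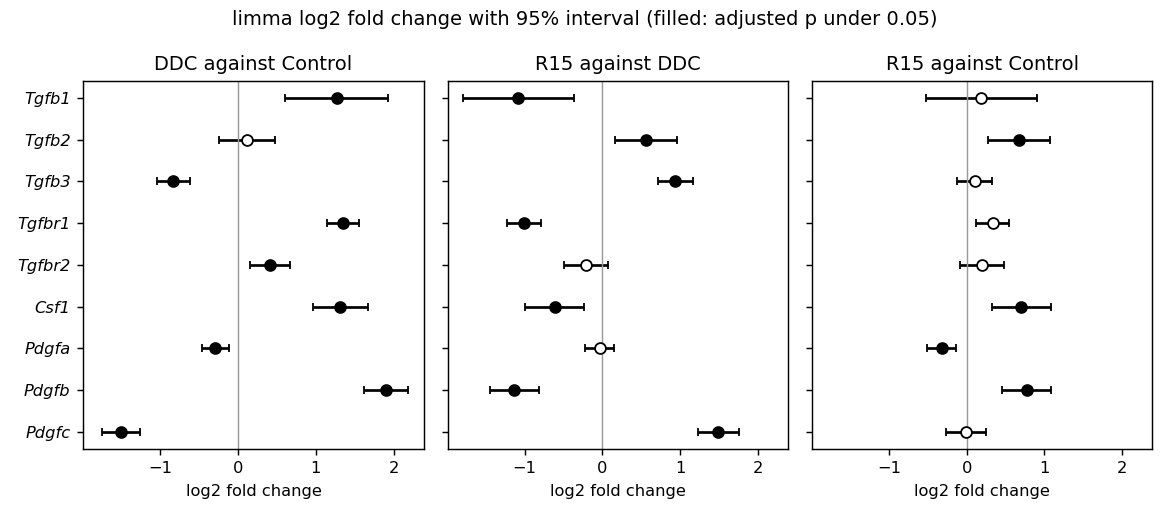
Points are limma log2 fold changes on the log2(FPKM + 1) scale with 95% intervals, for each of the 9 genes in 3 comparisons; filled points have an adjusted p under 0.05. In R15 against Control, Tgfb2 (0.67), Pdgfb (0.77), Csf1 (0.70) and Pdgfa (-0.32) are filled, and Pdgfc lies at -0.01.

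After 15 days back on chow, 3 of the 9 genes were higher than in Control (Tgfb2, Pdgfb, Csf1), 1 was lower (Pdgfa) and 5 did not pass. Over all genes tested 9.58% passed in R15 against Control, 6.87% higher and 2.72% lower. In 5 of the 9 (Tgfb2, Tgfbr1, Pdgfa, Pdgfb, Csf1) the R15 and Control libraries did not overlap, beside 21.3% of all genes. With median-of-ratios scaling 49.1% of all passing genes were higher in this comparison, with quantile normalization 55.9%, and with the values as deposited 71.6%. Of the 9, Pdgfb alone kept this call whichever library was left out, and none of the 4 calls held when only the R15 and Control libraries were fitted, or without the 5 libraries with pancreatic transcripts. Against DDC, 3 of the 9 were higher in R15 (Tgfb2, Tgfb3, Pdgfc), 4 were lower (Tgfb1, Tgfbr1, Pdgfb, Csf1) and 2 did not pass, beside 62.2% of all genes passing, 33.4% higher and 28.8% lower. In 6 of the 9 the R15 and DDC libraries did not overlap, beside 66.6% of all genes. Of those passing genes 53.7% were higher, and 65.1% with every library rescaled to one total, which moved the median of all genes by 0.14 to the higher side.

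The order of levels changed with the stage. In DDC it ran Pdgfb, Csf1, Tgfbr1, Tgfbr2, Tgfb1, Pdgfc, Tgfb2, Tgfb3 and Pdgfa from high to low, and neighbours overlapped except Pdgfb with Csf1, Tgfbr2 with Tgfb1 and Tgfb1 with Pdgfc. In R15 it ran Pdgfc, Tgfb2, Tgfb3, Pdgfb, Tgfbr2, Csf1, Tgfbr1, Tgfb1 and Pdgfa, where only Pdgfc with Tgfb2 and Csf1 with Tgfbr1 did not overlap. In Control it ran Pdgfc, Tgfb3, Tgfbr2, Tgfb2, Pdgfa, Csf1, Pdgfb, Tgfbr1 and Tgfb1, and only Pdgfc stood clear of the next gene. Pdgfb was thus first in DDC and seventh in Control.

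The other genes of these pathways were described through 6 lists. Of 17 genes listed under TGF beta latency and activation, not all of which need act on TGF beta itself, 15 were tested. In DDC 9 rose and 4 fell, beside 33.5% higher and 31.9% lower over all genes tested. The median log2 difference was 0.22 beside 0.00 over all. Ltbp2, a matrix protein of the latent binding protein family, rose to 23.8 ± 1.96 FPKM in DDC, against 1.01 ± 0.514 FPKM in Control (log2 difference 3.65 ± 0.17, adjusted p = 2e-07). The integrin chains Itgav and Itgb6, which together form an activator of latent TGF beta, were at 57.7 ± 4.57 and 16.1 ± 1.56 FPKM in DDC, against 16.1 ± 1.97 and 5.19 ± 0.599 FPKM in Control (log2 differences 1.78 ± 0.08 and 1.47 ± 0.08). Ltbp4, of the same family, fell to 6.51 ± 0.824 FPKM in DDC, against 38.5 ± 10.4 FPKM in Control (-2.36 ± 0.19, adjusted p = 3.2e-06). The other genes that fell were Lrrc32, Itgb8 and Bgn, named after their values were seen. Itgb8, the beta chain of a second activating integrin, was at 10.7 ± 0.429 FPKM in DDC and 18.0 ± 3.36 FPKM in Control. Of 12 endothelial markers 11 were also lower in DDC, and the part of endothelial cells in the 4 falls was not tested. Against DDC, R15 had the same 9 lower and the same 4 higher, with Itgb6 at 7.59 ± 0.281 FPKM and Thbs1, a secreted activator, at 19.5 ± 7.23 FPKM in R15, against 16.1 ± 1.56 and 50.2 ± 2.71 FPKM in DDC. Against Control 4 of the 15 were higher in R15, beside 6.87% of all genes: Ltbp2 (2.59 ± 0.18, adjusted p = 7.8e-05), Itgav (0.97 ± 0.09, adjusted p = 0.00036), Itgb6 (0.48 ± 0.09, adjusted p = 0.012) and Thbs1 (0.83 ± 0.23, adjusted p = 0.0497). The Thbs1 call was lost on leaving out any 1 library but Control 1 or R15 3, with log2 differences of 0.56 to 0.93.

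All 19 genes of co-receptors and SMAD signalling were tested; 8 rose and 9 fell in DDC, beside 33.5% higher and 31.9% lower over all genes, with a median of -0.09. The ubiquitin ligase gene Smurf1 (13.9 ± 0.519 FPKM in DDC and 9.36 ± 0.264 in Control) and the SMAD corepressor gene Tgif1 (32.7 ± 1.93 in DDC and 19.6 ± 1.05 in Control) rose. The SMAD anchor gene Zfyve9 (7.40 ± 0.299 in DDC and 12.6 ± 0.671 in Control), the decoy receptor gene Bambi (2.48 ± 0.452 in DDC and 11.4 ± 2.72 in Control) and the co-receptor gene Tgfbr3 (0.651 ± 0.246 in DDC and 3.78 ± 1.01 in Control) fell. The endothelial marker sum was lower in the same DDC libraries, and its part in these values was not tested. In R15, 11 were higher and 5 lower than in DDC, among them Hipk2, a nuclear kinase, at 31.1 ± 3.28 FPKM in R15 and 16.8 ± 1.12 FPKM in DDC. Against Control only Smad7, an inhibitor that TGF beta induces, passed in R15, at 17.5 ± 1.11 FPKM in R15 and 14.2 ± 1.18 FPKM in Control (0.29 ± 0.07, adjusted p = 0.028); the call was lost without Control 1, Control 3, R15 2 or R15 3 (0.24 to 0.30).

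Of 28 genes known to respond to TGF beta, 22 were tested; 15 rose and 2 fell in DDC, beside 33.5% higher and 31.9% lower over all genes, with a median of 0.95. Of the 14 macrophage markers 11 rose and 1 fell in the same comparison (median 2.83), and their part in this list's values was not tested. The 6 under the filter included the fibrillar collagen genes Col1a1, Col1a2 and Col3a1. Tgfbi, a secreted matrix protein, was at 80.9 ± 10.9 FPKM in DDC and 2.35 ± 0.420 FPKM in Control (4.61 ± 0.34, adjusted p = 2.2e-06). In R15 1 to 3 Tgfbi was at 3.25, 15.5 and 4.48 FPKM, so that the library with the high macrophage sum was again highest. Pmepa1, an inhibitor of the pathway, rose to 19.1 ± 0.808 FPKM in DDC, against 8.83 ± 1.60 FPKM in Control (1.04 ± 0.11). The genes that fell were Smad7 and Timp3, and without any 1 of Control 4, DDC 1, DDC 2 or DDC 4 only 1 of them passed. Against DDC, 11 were lower and 4 higher in R15. Against Control, 6 were higher in R15, beside 6.87% of all genes, led by Ltbp2 and Cdh2, the N-cadherin gene, at 6.40 ± 1.09 FPKM in R15 and 1.72 ± 0.373 FPKM in Control (1.44 ± 0.17, adjusted p = 0.0011), and 0 were lower by limma, or 1 without Control 1 or R15 2.

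Of 11 PDGF partners, that is receptors, the fourth ligand and proteases, 6 were tested. In DDC 2 rose and 1 fell, not far from the background of 65.4% of all genes passing, with a median of 0.02. Plat and Plau, the plasminogen activators, of which Plat is known to activate the Pdgfc product, were at 44.3 ± 5.14 and 25.9 ± 1.07 FPKM in DDC, against 0.981 ± 0.497 and 2.10 ± 1.20 FPKM in Control (log2 differences 4.54 ± 0.16 and 3.20 ± 0.28). Plat thus rose in the libraries in which Pdgfc fell. In R15 Plat was at 3.82 ± 0.499 FPKM, lower than in DDC (-3.23 ± 0.17, adjusted p = 1.1e-06) and higher than in Control (1.31 ± 0.17, adjusted p = 0.002). Pdgfd fell to 44.4 ± 4.21 FPKM in DDC, against 90.9 ± 11 FPKM in Control (-1.02 ± 0.10, adjusted p = 9.5e-06), and was at 86.1 ± 6.92 FPKM in R15 (-0.07 ± 0.10 from Control, adjusted p = 0.67). The receptor genes were near 0: Pdgfra was at 0.00611 to 0.0237 FPKM in DDC, 0.0364 to 0.0850 in R15 and 0.00221 to 0.0190 in Control libraries. Pdgfrb was at 0.0647 to 0.178 FPKM in DDC, 0.0395 to 0.426 in R15 and 0.0316 to 0.101 in Control libraries. Both were under the filter, so these data hold the ligand transcripts with almost none of their receptors'.

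**Figure D4:**
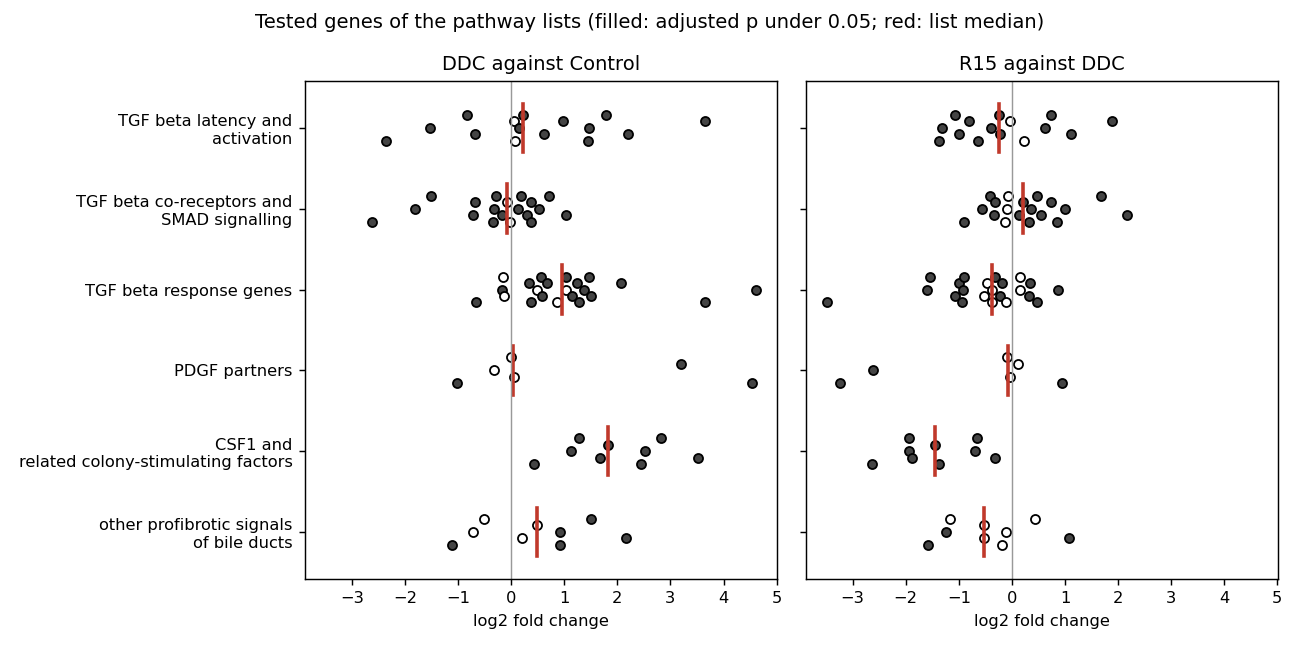
Each point is a tested gene of a pathway list, placed by its limma log2 fold change on the log2(FPKM + 1) scale in DDC against Control (left) and R15 against DDC (right); filled points have an adjusted p under 0.05 and red lines are list medians. All 9 tested genes of the CSF1 list are filled, to the right of 0 on the left and to the left of 0 on the right.

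Of 10 genes of CSF1 and related colony-stimulating factors, 9 were tested and all 9 rose in DDC, beside 33.5% of all genes, with a median of 1.82. Il34, which encodes the other ligand of Csf1r, was at 16.8 ± 1.33 FPKM in DDC and 4.05 ± 0.588 FPKM in Control (1.82 ± 0.10, adjusted p = 4.7e-07). Csf2, the granulocyte-macrophage factor, was at 2.46 ± 0.843 FPKM in DDC and 0.0592 ± 0.0586 FPKM in Control (1.68 ± 0.16). Csf1r, the receptor and itself a macrophage marker, was at 86.2 ± 10.4 FPKM in DDC and 35.2 ± 5.90 FPKM in Control (1.28 ± 0.15), and Spi1, the myeloid transcription factor, at 24.1 ± 3.16 FPKM in DDC and 2.56 ± 0.752 FPKM in Control (2.83 ± 0.32). Of the 14 macrophage markers 11 rose beside this list, and Csf3r of this list is itself a neutrophil marker; the part of these cells in the list's rise was not tested. All 9 were lower in R15 than in DDC, with a median of -1.44; of the macrophage markers 9 of 14 were lower and 0 higher by limma (median -2.24). Il34 was at 5.58 ± 0.835 FPKM in R15 (-1.44 ± 0.11 from DDC, adjusted p = 5.8e-06). Against Control only Csf1r passed in R15 (0.58 ± 0.16, adjusted p = 0.047), and it was lost on leaving out any 1 library but Control 2 or R15 3 (0.42 to 0.64).

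Of 13 other profibrotic signals described for bile ducts, 9 were tested. In DDC 4 rose (Ccn1, Edn1, Lif, Osm) and Gas6 fell, not far from the background of 65.4% of all genes passing, with a median of 0.49. Lif, an interleukin 6 family cytokine, was at 8.74 ± 0.788 FPKM in DDC and 2.42 ± 0.402 FPKM in Control (1.51 ± 0.09, adjusted p = 7.5e-07). Gas6, a ligand of TAM receptors, fell to 514 ± 24.0 FPKM in DDC, against 1120.5 ± 75.2 FPKM in Control (-1.12 ± 0.09), and was at 1081.5 ± 134 FPKM in R15. Ccn1, a matricellular protein, was still above Control after recovery, at 149 ± 32.6 FPKM in R15 and 56.9 ± 7.82 FPKM in Control (1.36 ± 0.18, adjusted p = 0.0021). Its R15 value was also above DDC, by a log2 difference of 0.44 that did not pass (adjusted p = 0.05). That difference passed in 9 of the 24 alternatives. Edn1, endothelin 1, was at 8.08 ± 2.23 FPKM in R15 and 4.39 ± 0.242 FPKM in Control (0.73 ± 0.17, adjusted p = 0.028), a call lost without Control 1, Control 3, R15 2 or R15 3 (0.54 to 0.75).

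The genes whose levels ran most like those of each of the 9 were found by Pearson's r of log2(FPKM + 1) over the 11 libraries. These libraries form 3 groups, so r mostly carries the differences between groups, and it is given as a description. For Tgfb1 they were Sh2b3 (0.985), Klhl6 (0.980) and Arhgap45 (0.980), and for Tgfb2 Zfp184 (0.982), Ppp2r3d (0.956) and Cavin3 (0.948). Tgfb3 ran with Amotl2 (0.997), Smarcal1 (0.993) and Rassf9 (0.992). Nearest to Tgfbr1 were Nab2 (0.996), Myo5a (0.996) and Ms4a4a (0.993), and to Tgfbr2 Hip1 (0.968), Pkn3 (0.962) and Lrrc8c (0.954). Pdgfa had the loosest neighbours, Dusp14 (0.913), Sdc4 (0.908) and Capn6 (0.907). Pdgfb ran with Rnd1 (0.996), Birc3 (0.991) and Zfp469 (0.990), and Pdgfc with Nat14 (0.997), 4933431E20Rik (0.996) and Lgalsl (0.995). Csf1 ran with Sf3a1 (0.982), Rrad (0.981) and Nfkbie (0.979).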

How the data were processed

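The authors deposited FPKM per gene and library in 1 table with gene names, coordinates and a length column; stranded mRNA libraries are given per the labels' protocols, and build mm10 per the submitters' processing notes. No source used here gives the aligner, the counting tool or its strand setting. All nonzero deposited FPKM values (100%) were whole multiples of 1 read within 0.001, which gave the depth, a median of 122.5 reads behind values near FPKM 1, and 1 alternative test.

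From the table, log2(FPKM + 1) was computed, which understates differences of weakly expressed genes. The test took the 15264 genes that reached FPKM 1 in 3 or more libraries and ran in limma 3.58.1 (R 4.3.3) with 1 mean per group over all 11 libraries, empirical Bayes variances that follow the mean, a 2-sided p, Benjamini-Hochberg adjustment over all genes tested and a threshold of 0.05. The calculation was first tested on simulated data. Lists were counted, with no set test. Named genes were the 9, the 4 tested genes of smallest p per list and comparison, 9 fixed partners (1 of which is not reported here), and the 3 genes nearest to each of the 9. The 9 genes, the 6 pathway lists and the 12 marker lists were chosen with earlier results of these data known, and some genes stand in more than 1 pathway list. The marker lists covered cholangiocytes, macrophages, dendritic cells, neutrophils, T and NK cells, B and plasma cells, endothelium, stellate cells and fibroblasts, mesothelium, hepatocytes, platelets and pancreatic acinar cells.

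The alternatives were a pseudocount of 0.1 or 5, a filter at FPKM 5 or none, 3 scalings, only the 2 groups compared, robust empirical Bayes, limma voom on the reads, the replicate number as a block, and libraries left out. The labels give each library its own mouse number, so replicate numbers do not pair mice; separate mice are taken from those numbers. Of the 9 genes, 6 have the same coordinates in GENCODE M21. Promoters came from a RefSeq table.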

Additional observations from a re-analysis of the deposited data

Results flagged for a closer look

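Pdgfb in DDC 4, at 46.0 FPKM, lay apart from the other DDC libraries, which were at 53.9, 55.4 and 55.5 FPKM. It was the 1 value set apart among 18 groups of 4 libraries checked, and chance sets apart about 1 in 20 groups. DDC 4 also had the highest macrophage marker sum, 2561.6 FPKM, and the part of that in the lower Pdgfb value was not tested. The Pdgfb rise in DDC against Control passed whichever 1 library was left out (log2 difference 1.79 to 1.98).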

How the results depend on the processing

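Over 24 alternatives, 11 of them leaving out 1 library each, 580 of 648 log2 differences of the 9 genes kept direction and call; 50 lost the call, 5 gained it and 13 changed sign, and 43, 4 and 7 of these were in R15 against Control. In DDC against Control 5 genes rose and 3 fell; without the 5 libraries with pancreatic transcripts, which leaves 1 Control library assumed to vary like the others, 3 rose (Tgfb1 and Tgfbr2 were lost, at 1.17 and 0.38), and leaving out single libraries kept 5 and 3. In R15 against Control the 3 higher genes became 1 with no filter, with the replicate block and without Control 1 and Control 3, and 0 with only the 2 groups compared and without the 5 libraries, with 1 to 4 on leaving out single libraries. The 1 lower gene became 0 under each of these and with rescaling to one total, with 0 to 1 on leaving out single libraries. In R15 against DDC the 4 lower genes became 2 without the 5 libraries and 3 to 5 on leaving out single libraries. The cause was not tested; fewer libraries enter several of these fits.

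Values that changed sign had not passed. In DDC against Control, Tgfb2 was -0.05 without Control 1 (-0.05 to 0.22 over single libraries left out), -0.14 without Control 1 and Control 3 and -0.12 without the 5 libraries, and Furin was -0.03 when rescaled. In R15 against Control, Tgfb1 was -0.19 without R15 2 (-0.19 to 0.49 over single libraries) and Tgfb3 -0.04 without Control 1 and Control 3. There Pdgfc was 0.02 when rescaled, 0.04 with quantile normalization, and 0.05, 0.03 and 0.13 without Control 2, Control 4 and R15 2 (-0.08 to 0.13 over single libraries). Pcsk7 was 0.07 without the 5 libraries. In R15 against DDC, Pdgfa was 0.07 when rescaled, and 0.02 and 0.03 without DDC 1 and R15 2 (-0.09 to 0.03 over single libraries), and Pcsk7 was 0.02 when rescaled.

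Over all genes, R15 against Control had 1048 higher and 415 lower. Median-of-ratios scaling gave 682 and 707; the counts were 594 and 468 with quantile normalization, 807 and 253 when rescaled, 247 and 70 with only the 2 groups, 486 and 207 with the replicate block, 341 and 170 without Control 1 and Control 3, and 9 and 1 without the 5 libraries. Leaving out single libraries gave 493 to 1464 higher and 187 to 722 lower. The same-numbered libraries correlated at -0.282 to 0.300 over 10 pairs, 3 of them over 0.1. Those 3 were DDC with Control pairs, numbers 1 (0.300), 2 (0.181) and 4 (0.247), while number 3 was at -0.016. Libraries of different numbers were not compared in this way, so these values cannot show whether a number marks shared handling. Of 864 list counts under alternatives 64 moved by over 1.5 times, and of 1720 values of named list genes 1642 kept direction and call. The 3 R15 mice, of which R15 2 stands apart, limit what recovery can show.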

Other observations

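Among the listed profibrotic signals, Shh, a ligand of the hedgehog pathway, differed more between libraries of 1 group than between groups. It was at 0.143, 0.532, 1.38 and 6.17 FPKM in DDC 1 to 4, at 0.0268, 0.0872 and 0.0230 FPKM in R15 1 to 3 and at 19.0, 0.0322, 7.88 and 0.249 FPKM in Control 1 to 4. It passed in no comparison. Control 1, with the highest Shh, also had the highest pancreatic acinar marker sum, 6770.4 FPKM, and Control 3 had high Shh beside a sum of 803 FPKM. DDC 1, R15 3 and Control 2, with sums of 873, 1106.3 and 1803.5 FPKM, had low Shh. DDC 4 had 6.17 FPKM of Shh beside a sum of 11.4 FPKM. The part of pancreatic cells in the Shh values was not tested.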
